A study of Arabidopsis thaliana with 24 samples.

Results

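The effect of the abi3-5 mutation on the transcripts of developing Arabidopsis thaliana seeds was set against the effects of lec1-1 and fus3-3. Each effect was the log2 change of a mutant over its own wild type. The quantity followed throughout, called the difference, was the abi3-5 effect minus the mean of the lec1-1 and fus3-3 effects. A negative difference means that a transcript was lowered more, or raised less, in abi3-5. Of the 24 samples of the series, 18 entered it by genotype, 6 from abi3-5 and Ler, 6 from lec1-1 and Ws, and 6 from fus3-3 and Col-0.

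The compared groups were homogeneous lines given only by name in the labels: abi3-5 in ecotype Landsberg erecta with wild type Ler, lec1-1 in Wassilewskija with wild type Ws, and fus3-3 in Columbia 0 with wild type Col-0. Seeds of each were dissected from siliques of 24 plants at 15, 17 and 21 days after flowering (DAF), and RNA of the repeat collections was pooled, so that each genotype and day is 1 library. The labels give the 3 mutants as desiccation intolerant and the 3 wild types as desiccation tolerant. The 3 days are the only repeats of a genotype, and p-values measure the spread between them after a shared effect of the day. Since each mutant is in another ecotype, the mutated gene and the ecotype cannot be told apart in the difference.

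ABI3, FUS3 and LEC1 are central regulators of seed maturation, the phase in which the embryo fills with storage protein and oil and becomes able to survive drying. ABI3 and FUS3 are transcription factors with a B3 domain, which binds the RY element. LEC1 is a subunit of the NF-Y complex. ABI3 also acts with bZIP factors of abscisic acid signalling, which bind elements with an ACGT core. Mutants of each gene can lose desiccation tolerance, and those of ABI3 are also insensitive to abscisic acid in germination.

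The 18 libraries held between 1670355 and 6531673 counts, the fewest in the Col-0 library and the most in the fus3-3 library of 17 DAF. Storage protein genes took 15.4 to 23.8% of counts in abi3-5 and 31.2 to 62.3% in Ler, 7.45 to 14.3% in lec1-1 and 15.0 to 62.5% in Ws, and 9.93 to 21.2% in fus3-3 and 18.5 to 62.4% in Col-0. The Col-0 libraries of 17 and 21 DAF stood apart. Their storage shares were 18.5% at 17 DAF and 62.4% at 21 DAF, the reverse of the order in Ws (54.7 and 15.0%) and Ler (57.4 and 31.2%). Counts of called genes are therefore also given with these libraries exchanged or left out. Levels are given in CPM, the count of a gene relative to its library's total, scaled by the trimmed mean of M-values (TMM), which compares a gene between libraries and not between genes.

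The mutated genes themselves gave little on the labels. ABI3 had 21.9, 57.7 and 28.2 CPM at 15, 17 and 21 DAF in abi3-5 and 138, 52.9 and 79.4 CPM in Ler. It had 31.0, 47.7 and 65.5 CPM in lec1-1 against 210, 200 and 99.2 CPM in Ws, and 49.3, 35.2 and 40.7 CPM in fus3-3 against 92.1, 89.6 and 191 CPM in Col-0. Its lec1-1 effect of -1.79 and fus3-3 effect of -1.60 passed the test, and its abi3-5 effect of -1.32 did not (edgeR adjusted p = 0.0138, 0.0286 and 0.106). The difference for ABI3 was 0.38 ± 0.59 (SE, edgeR adjusted p = 0.864). FUS3 had 22.1, 17.9 and 0.421 CPM in abi3-5, 22.4, 7.33 and 0.993 CPM in Ler, 3.26, 0.222 and 0.229 CPM in lec1-1, 27.8, 19.5 and 0.829 CPM in Ws, 18.2, 5.42 and 0.81 CPM in fus3-3 and 22.0, 0 and 13.8 CPM in Col-0. The difference for FUS3 was 3.20 ± 1.23 (SE, edgeR adjusted p = 0.334). LEC1 held 0 to 3 counts and LEC2 0 to 5 counts per genotype, and neither was tested. What the lesions do to these transcripts is not stated in the labels, so these levels check no label.

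The difference was called at an adjusted p under 0.05 (edgeR quasi-likelihood test, Benjamini-Hochberg over all genes) for 86 of 16085 tested genes, 0.535% of them. Of these, 61 were negative (0.379%) and 25 positive (0.155%). With libraries scaled by their totals in place of TMM, 30 were negative and 28 positive, and the median of all genes moved to 0.24 from -0.05. At an unadjusted p under 0.05 there were 1807 genes, 1005 negative and 802 positive. All 86 had the same sign of the difference at each of the 3 days and against lec1-1 and fus3-3 taken separately. They were called from these same values, so the shared signs describe them and test nothing. The abi3-5 effect differed from the lec1-1 effect at 54 genes (0.336%), with 43 lower (0.267%) and 11 higher (0.0684%) in abi3-5, and from the fus3-3 effect at 45 (0.28%), with 30 lower (0.187%) and 15 higher (0.0933%). Of the 86, 44 were also called against lec1-1 alone, 41 against fus3-3 alone and 30 against both. The lec1-1 and fus3-3 effects differed from each other at 1 gene (0.00622%), AT4G38932, by the same test, with 674 genes at an unadjusted p under 0.05 and 12 called genes with DESeq2. Exchanging the days of the Col-0 libraries of 17 and 21 DAF gave 174 called genes, all 86 among them. Leaving both out gave 105, with 71 of the 86. Single libraries moved the count from 30, without abi3-5 at 17 DAF, to 191, without Col-0 at 17 DAF. It fell below 86 by more than 1.5 times also without Ler at 15 DAF (47), Ler at 17 DAF (50), lec1-1 at 15 DAF (53), fus3-3 at 17 DAF (53), abi3-5 at 15 DAF (56) and Ws at 17 DAF (57).

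Against the wild types, 1285 genes were called in abi3-5 (7.99%), 3808 in lec1-1 (23.7%) and 3057 in fus3-3 (19%). In abi3-5, 682 were higher (4.24%) and 603 lower (3.75%). In lec1-1, 2337 were higher (14.5%) and 1471 lower (9.15%), and in fus3-3, 1663 were higher (10.3%) and 1394 lower (8.67%). With library totals in place of TMM the splits were 7808 higher and 221 lower in abi3-5, 6383 and 178 in lec1-1 and 5556 and 347 in fus3-3. Across the 16085 genes the abi3-5 effect had a Pearson correlation of 0.620 with the lec1-1 effect and 0.644 with the fus3-3 effect, and those of lec1-1 and fus3-3 had 0.773 with each other. These effects share no library but share the fitted day term, and genes are not independent replicates. Of all 16085 tested genes, 809 were called lower in both lec1-1 and fus3-3. Of the 603 genes lower in abi3-5, 268 (44.4%) were also called lower in both, which is 33.1% of those 809. A further 158 of the 603 were called lower in 1 of lec1-1 and fus3-3 and 177 in neither. Of those 177, the difference itself was called for 21 (11.9%). Of all 16085 tested genes, 1257 were called higher in both lec1-1 and fus3-3. Of the 682 genes higher in abi3-5, 406 (59.5%) were higher in both others, 32.3% of those 1257. Of the 147 higher in neither, the difference was called for 3 (2.04%). Over all tested genes, 0.379% had a called negative and 0.155% a called positive difference. Most calls in abi3-5 that were missing in the other mutants thus came without a called difference, though both shares exceeded those of all genes. The sets were chosen from the same values, so these shares are not tests.

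**Figure D1:**
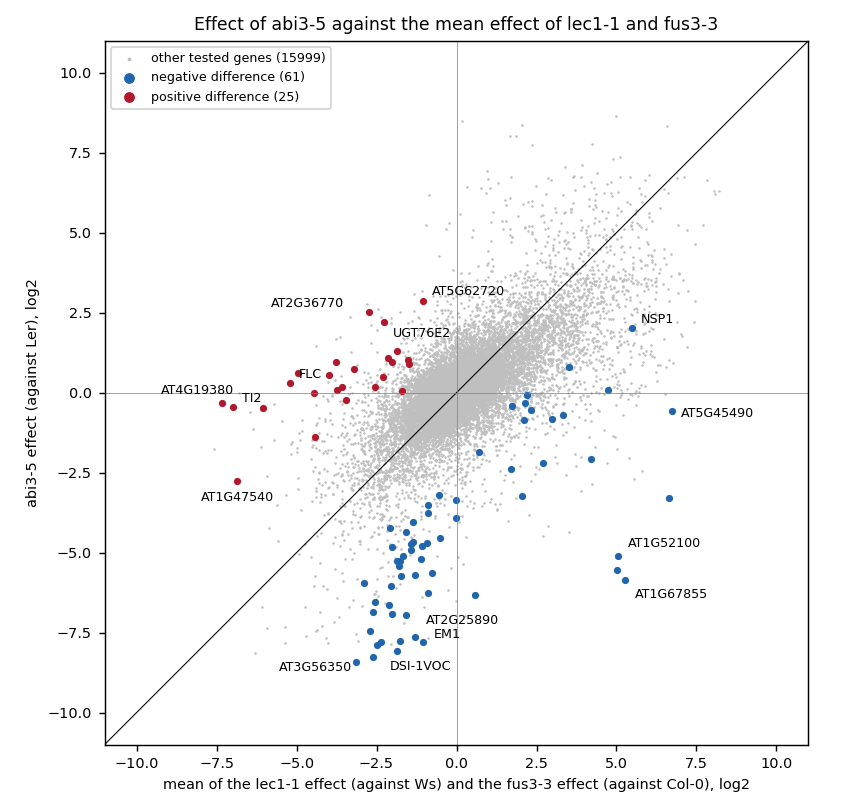
Log2 effect of abi3-5 against Ler (vertical) plotted against the mean of the log2 effects of lec1-1 against Ws and fus3-3 against Col-0 (horizontal), 1 point per tested gene; the line marks equal effects. The 61 genes with a called negative difference (blue) lie below the line, mostly where all effects are negative, and the 25 with a called positive difference (red) lie above it, mostly at an abi3-5 effect near 0.

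The 61 genes of negative difference fell into separate patterns. Of them, 47 were called lower in abi3-5. Among these 47, 20 were also called lower in lec1-1 and fus3-3 but by less, 6 in 1 of these mutants, and 17 were called in abi3-5 alone. The other 4 were called higher in both (3 genes) or in 1 (MSRB5) of lec1-1 and fus3-3. A further 13 were not called in abi3-5 and were called higher in both lec1-1 and fus3-3 (11 genes) or in 1 of them (2 genes). NSP1 was higher in all 3 mutants, by the least in abi3-5. Of the 25 genes of positive difference, 20 were called lower in both lec1-1 and fus3-3 and not called in abi3-5, and 1 was lower in 1 of them. The remaining 4 were AT5G62720, called higher in abi3-5 alone, AT2G36770 and UGT76E2, called higher in abi3-5 and lower in lec1-1 or in both others, and AT1G47540, lower in all 3 mutants and by the least in abi3-5.

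**Figure D2:**
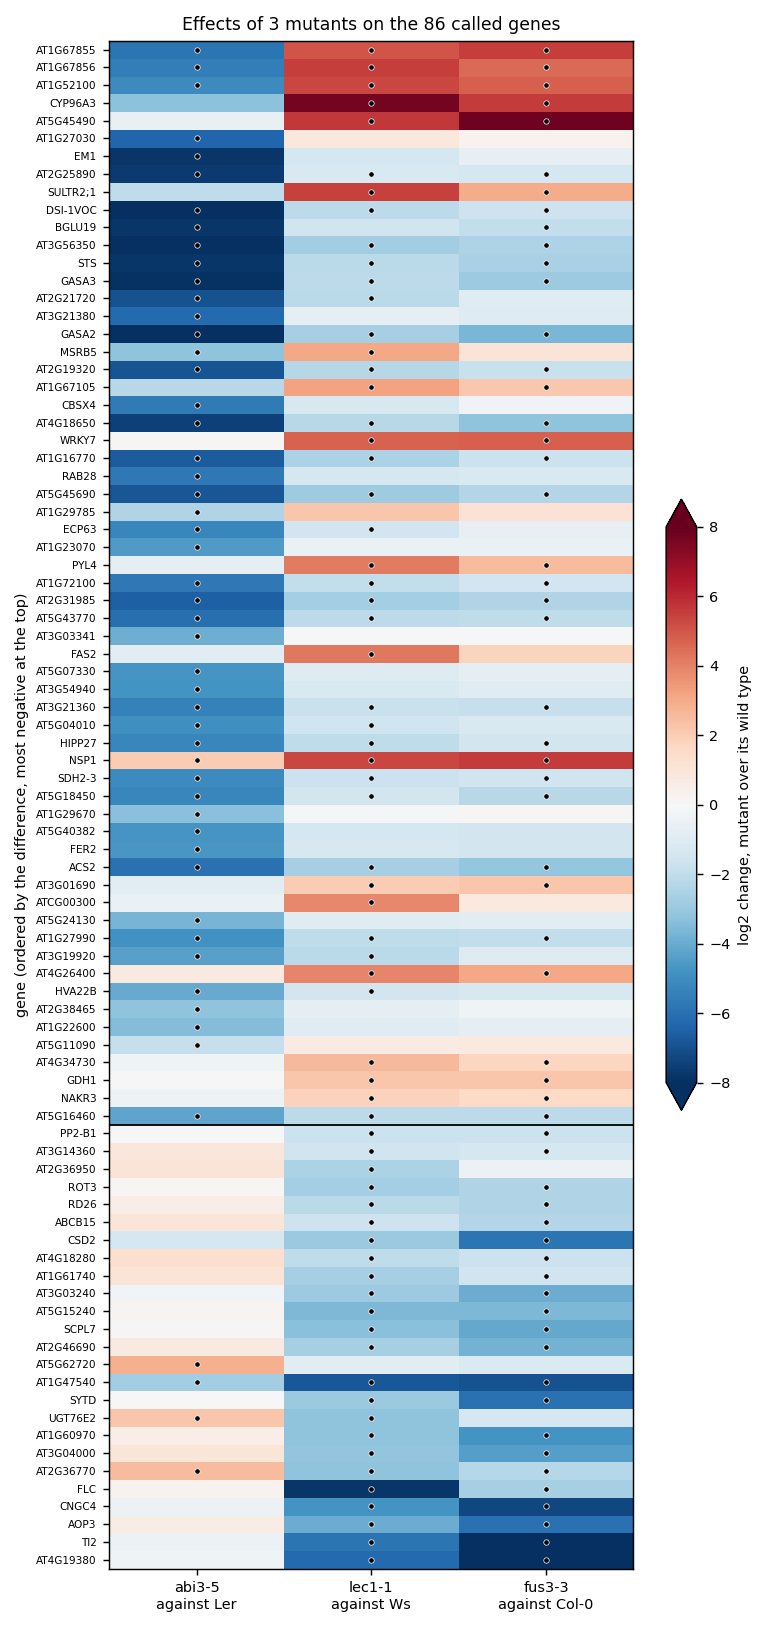
Log2 effects of abi3-5, lec1-1 and fus3-3 (columns) on the 86 genes with a called difference (rows, ordered by the difference, with a line between negative and positive); colour runs from -8 to 8 and a dot marks an effect called at an adjusted p under 0.05. Most of the 61 upper rows are dark blue in abi3-5 and paler in the other columns, and most of the 25 lower rows are pale in abi3-5 and blue in the other columns.

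Late embryogenesis abundant (LEA) proteins are hydrophilic proteins that build up in seeds before drying. The LEA list held 4 of the called genes among 40 tested, all negative, where 0.379% of all tested genes were called negative. AT1G22600, annotated as a LEA family protein but outside that list, is named after its values were seen. It had a called difference of -2.62 ± 0.51 (SE, edgeR adjusted p = 0.0171). EM1, a group 1 LEA protein, had 8.52, 22.4 and 11.6 CPM in abi3-5 against 730, 4186 and 7871 CPM in Ler. It had 613, 870 and 2037 CPM in lec1-1 against 1923, 3611 and 2941 CPM in Ws, and 304, 1560 and 2096 CPM in fus3-3 against 438, 3031 and 3037 CPM in Col-0. Each abi3-5 library was far below every other library, while the lec1-1 and fus3-3 libraries overlapped with their wild types. The EM1 effect was -7.78 in abi3-5, -1.43 in lec1-1 and -0.68 in fus3-3, and the difference was -6.72 ± 0.93 (SE, edgeR adjusted p = 0.00122). Only the abi3-5 effect of these 3 was called (edgeR adjusted p = 2.79e-05, 0.13 and 0.504). ECP63, a LEA protein first described in embryonic cells, had 13.6, 17.9 and 10.5 CPM in abi3-5 against 473, 272 and 818 CPM in Ler. It had 205, 310 and 498 CPM in lec1-1 against 789, 1125 and 954 CPM in Ws, and 300, 435 and 462 CPM in fus3-3 against 415, 735 and 793 CPM in Col-0. Its difference was -4.07 ± 0.54 (SE, edgeR adjusted p = 0.00111).

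The LEA domain gene AT1G72100 had 9.09, 12.8 and 16.0 CPM in abi3-5 and 264, 676 and 1603 CPM in Ler, 101, 177 and 407 CPM in lec1-1 and 458, 743 and 1293 CPM in Ws, and 173, 291 and 342 CPM in fus3-3 and 213, 1441 and 1156 CPM in Col-0. It was called lower in all 3 mutants, and the difference was -3.99 ± 0.63 (SE, edgeR adjusted p = 0.0037). RAB28, named for its response to abscisic acid, had 1.42, 0.687 and 0 CPM in abi3-5 and 16.5, 56.2 and 51.6 CPM in Ler. In lec1-1 it had 8.45, 14 and 29.1 CPM against 30.9, 32.5 and 62.1 CPM in Ws, and in fus3-3 3.90, 20.6 and 26.7 CPM against 14.5, 55.0 and 38.7 CPM in Col-0. Its difference of -4.39 ± 0.82 (SE, edgeR adjusted p = 0.0135) was not called without abi3-5 at 17 DAF (-4.15, adjusted p = 0.131). Over the 40 tested LEA genes the median difference was -0.98, or -0.85 with genes at 0 counts in a genotype set to their bound, against -0.05 over all genes. The median LEA effect was -2.17 in abi3-5 (18 called lower and 5 higher), -1.58 in lec1-1 (12 and 4) and -0.96 in fus3-3 (10 and 4). Of all tested genes, 3.75% were called lower and 4.24% higher in abi3-5, 9.15% and 14.5% in lec1-1, and 8.67% and 10.3% in fus3-3, so the LEA counts of higher genes in lec1-1 and fus3-3 were near or below those shares.

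**Figure D3:**
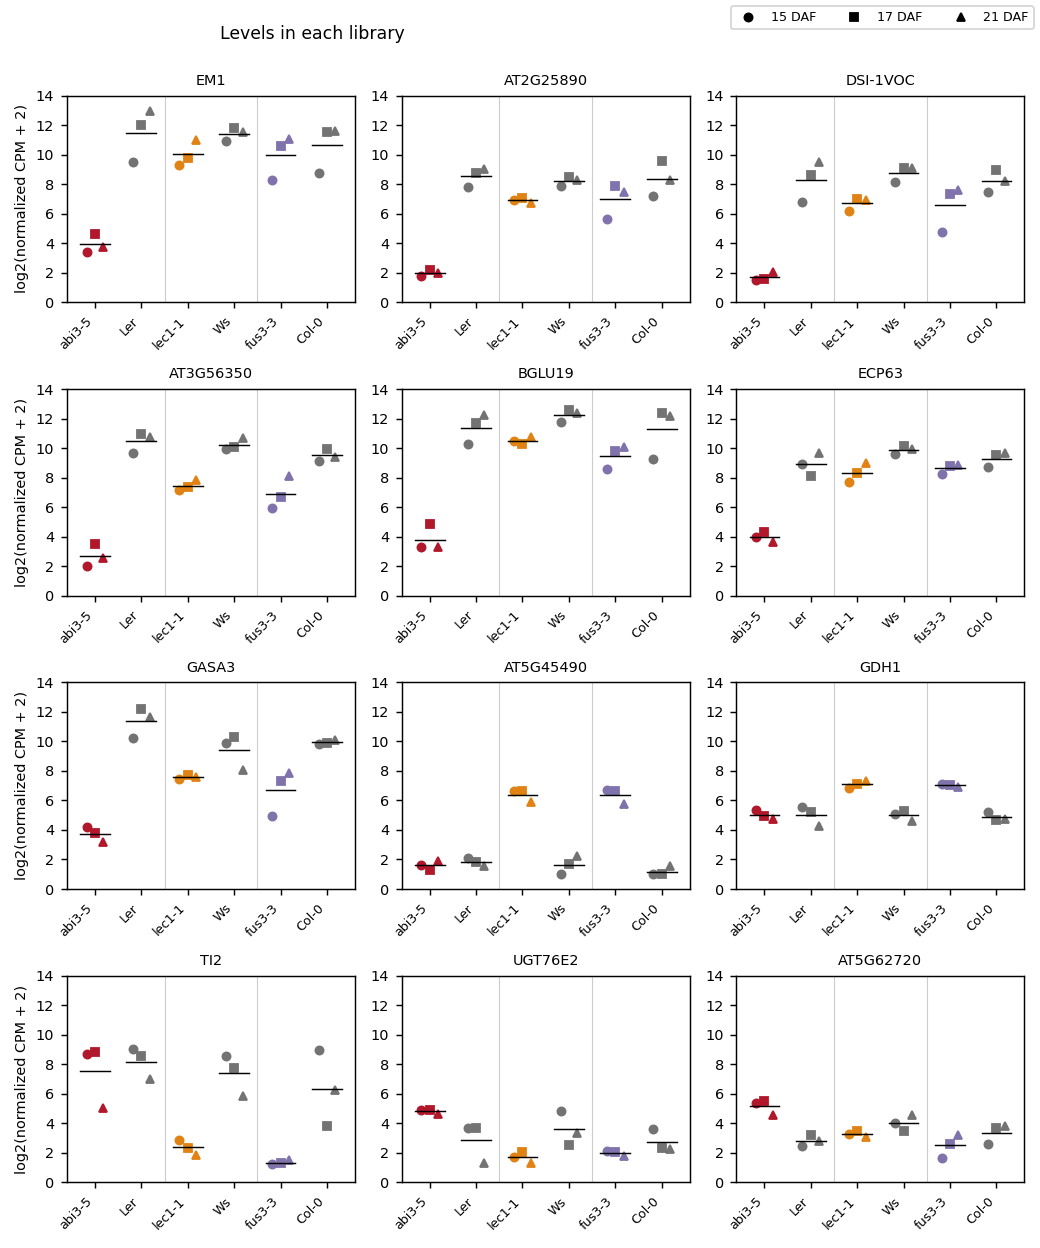
Level of 12 called genes in each library, as log2(normalized CPM + 2), with 1 point per day and a bar at the mean of the 3 days; vertical lines separate the 3 pairs of a mutant and its wild type. EM1, AT2G25890, DSI-1VOC, AT3G56350, BGLU19, ECP63 and GASA3 are lowest in abi3-5, AT5G45490 and GDH1 are high in lec1-1 and fus3-3 alone, TI2 is low in those mutants alone, and UGT76E2 and AT5G62720 are highest in abi3-5.

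A pair of genes linked to oil bodies, the lipid stores of the seed, had called negative differences. AT2G25890, an oleosin family gene whose protein class coats oil bodies, had 1.42, 2.52 and 1.90 CPM in abi3-5 against 218, 434 and 531 CPM in Ler. It had 122, 134 and 103 CPM in lec1-1 against 230, 355 and 308 CPM in Ws, and 48.8, 228 and 172 CPM in fus3-3 against 144, 752 and 306 CPM in Col-0. This was the smallest adjusted p of the comparison, at a difference of -6.32 ± 0.62 (SE, edgeR adjusted p = 4.1e-05). Its annotated span overlaps AT2G25880 on the opposite strand over 877 bases. That gene held 628 counts against 11707 for AT2G25890 in the 18 libraries, and whether the counting used strand is not given. AT5G16460, a seipin gene of a family that shapes lipid droplets at the endoplasmic reticulum, had 2.56, 3.21 and 3.37 CPM in abi3-5 and 53.1, 33.4 and 87.4 CPM in Ler, 10.4, 18.9 and 31.1 CPM in lec1-1 and 58.8, 87.1 and 97.5 CPM in Ws, and 10.7, 15.1 and 18.6 CPM in fus3-3 and 33.0, 85.2 and 76.9 CPM in Col-0. Its difference was -2.16 ± 0.45 (SE, edgeR adjusted p = 0.0288). That call was lost without 10 of the 18 libraries (Ler, abi3-5, lec1-1, fus3-3, Ws and Col-0 all among them), at -1.92 to -2.27 with adjusted p up to 0.131. AT5G16460 was the called gene among 16 tested of the oil body list, which does not hold AT2G25890, against 0.379% of all tested genes called negative. The list's median difference was -1.82.

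Of 25 tested antioxidant and metallothionein genes, 2 had a called negative and 1 a called positive difference, where 0.379% of all tested genes were negative and 0.155% positive. DSI-1VOC, annotated as a desiccation-induced protein of the vicinal oxygen chelate superfamily, had 0.852, 0.916 and 2.11 CPM in abi3-5 against 108, 389 and 733 CPM in Ler. It had 69.0, 123 and 122 CPM in lec1-1 against 281, 546 and 541 CPM in Ws, and 25.3, 162 and 193 CPM in fus3-3 against 176, 499 and 300 CPM in Col-0. The difference was -6.22 ± 0.68 (SE, edgeR adjusted p = 0.000141), with all 3 effects called lower (-8.09, -2.10 and -1.64). AT3G56350, of the iron/manganese superoxide dismutase family, which removes superoxide, had 1.99, 9.39 and 3.79 CPM in abi3-5 against 798, 2003 and 1727 CPM in Ler. It had 143, 164 and 225 CPM in lec1-1 against 971, 1064 and 1624 CPM in Ws, and 58.4, 103 and 277 CPM in fus3-3 against 562, 998 and 670 CPM in Col-0. The difference was -5.62 ± 0.65 (SE, edgeR adjusted p = 0.000141). CSD2, the chloroplast copper/zinc superoxide dismutase, had 17.0, 33.4 and 25.7 CPM in abi3-5 and 50.0, 64.3 and 80.9 CPM in Ler, against 3.11, 4 and 8.01 CPM in lec1-1 and 33.4, 46.1 and 32.9 CPM in Ws, and 0.217, 0.744 and 2.43 CPM in fus3-3 and 50.0, 69.8 and 45.6 CPM in Col-0. Here the lec1-1 and fus3-3 effects were called (-2.97 and -5.85) and the abi3-5 effect of -1.38 was not, and the difference was 3.03 ± 0.59 (SE, edgeR adjusted p = 0.0183). It was not called without Ler at 15, 17 or 21 DAF, abi3-5 at 17 DAF or fus3-3 at 17 DAF (2.87 to 3.14, edgeR adjusted p = 0.0507 to 0.0829). Over the 25 genes of that list the median difference was 0.02.

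Neighbouring genes on chromosome 3 fell together. BGLU19, a beta glucosidase, had 7.67, 26.3 and 7.79 CPM in abi3-5 against 1207, 3262 and 4791 CPM in Ler. It had 1425, 1241 and 1685 CPM in lec1-1 against 3484, 5978 and 5423 CPM in Ws, and 389, 870 and 1090 CPM in fus3-3 against 619, 5421 and 4698 CPM in Col-0. The difference was -5.99 ± 0.88 (SE, edgeR adjusted p = 0.00212). The lectin gene AT3G21380 had 10.8, 14.2 and 3.16 CPM in abi3-5 and 510, 683 and 1245 CPM in Ler, 776, 816 and 1284 CPM in lec1-1 and 1260, 1836 and 1800 CPM in Ws, and 182, 337 and 830 CPM in fus3-3 and 272, 1263 and 1333 CPM in Col-0. Its difference was -5.35 ± 0.82 (SE, edgeR adjusted p = 0.00297). The oxygenase gene AT3G21360 had a difference of -3.61 ± 0.72 (SE, edgeR adjusted p = 0.0217). AT3G21360 and BGLU19 overlap over 527 bases on opposite strands, with 25223 and 111316 counts in the 18 libraries, so part of the AT3G21360 counts may come from the more abundant BGLU19. AT3G21360 and AT3G21380 were named after their values were seen, as neighbours of BGLU19.

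GASA3 and GASA2, adjacent genes on chromosome 4 for small cysteine-rich peptides of a gibberellin-regulated family, were called lower in all 3 mutants and furthest in abi3-5. GASA3 had 16.2, 11.7 and 6.95 CPM in abi3-5 against 1217, 4635 and 3260 CPM in Ler. It had 177, 212 and 188 CPM in lec1-1 against 955, 1246 and 261 CPM in Ws, and 28.8, 159 and 232 CPM in fus3-3 against 898, 952 and 1089 CPM in Col-0. The difference was -5.41 ± 0.84 (SE, edgeR adjusted p = 0.00303). GASA2 had 0.568, 2.52 and 0.211 CPM in abi3-5 and 256, 516 and 250 CPM in Ler, 33.8, 81.3 and 70.3 CPM in lec1-1 and 346, 686 and 95.8 CPM in Ws, and 3.69, 39.7 and 63.6 CPM in fus3-3 and 163, 382 and 645 CPM in Col-0. Its difference of -5.30 ± 1.00 (SE, edgeR adjusted p = 0.0135) was not called without Ler at 15 DAF or any 1 abi3-5 library (-4.74 to -6.22, adjusted p = 0.0514 to 0.0558). GASA2 and GASA3 are similar in sequence, and how shared reads were counted is not given. The other 21 tested genes of gibberellin synthesis and response were not called, where 0.379% of all tested genes were called negative, and the list's median difference was 0.14.

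AT4G18650, annotated as a transcription factor-like protein and listed here with the dormancy genes, had 0, 0.687 and 0.843 CPM in abi3-5 and 61.4, 101 and 124 CPM in Ler, 8.16, 17.3 and 15.1 CPM in lec1-1 and 60.0, 87.1 and 25.7 CPM in Ws, and 6.18, 13.8 and 18.6 CPM in fus3-3 and 65.5, 180 and 116 CPM in Col-0. All 3 effects were called (-7.45, -2.19 and -3.22), and the difference was -4.74 ± 0.65 (SE, edgeR adjusted p = 0.00119). STS, annotated as stachyose synthase, an enzyme of the raffinose family of sugars that build up in drying seeds, had 2 counts in the 3 abi3-5 libraries against 303 in Ler. That is a ratio 331-fold lower (exact 95% interval 91.0 to 2750, counting error only). STS had 17.9, 14.2 and 12.8 CPM in lec1-1 and 132, 91.0 and 14.9 CPM in Ws, and 29.6, 16.7 and 10.5 CPM in fus3-3 and 89.6, 21.6 and 149 CPM in Col-0. Its difference of -5.43 ± 1.17 (SE, edgeR adjusted p = 0.0368) depends on the prior count because of the low count, and was not called without any 1 of 12 libraries (-4.71 to -7.96, adjusted p up to 0.142). STS and AT4G18650 were each the only called gene of 9 tested in their lists, where 0.379% of all tested genes were called negative. The median difference was 0.54 over the raffinose and inositol list, with 5 of 9 positive. It was 0.6 over the dormancy list, with 7 of 9 positive.

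Other genes of negative difference called lower in abi3-5 had known or annotated roles in metabolism and stress. They are named as examples chosen after their values were seen. SDH2-3, the iron-sulphur subunit of succinate dehydrogenase expressed in seeds, had a difference of -3.44 ± 0.55 (SE, edgeR adjusted p = 0.00384). FER2, a ferritin that stores iron, had -3.31 ± 0.73 and HVA22B had -2.68 ± 0.55 (SE, edgeR adjusted p = 0.0454 and 0.0273). ACS2, an enzyme of ethylene synthesis, had -3.06 ± 0.69 (SE, edgeR adjusted p = 0.0475). FER2, HVA22B and ACS2 were not called against lec1-1 alone or fus3-3 alone. Whether their calls hold without single libraries is not given here. AT5G45690, annotated with the domain DUF1264, had 50.8, 72.6 and 21.9 CPM in abi3-5 against 3459, 9340 and 5463 CPM in Ler, 656, 791 and 1220 CPM in lec1-1 against 5475, 7072 and 6459 CPM in Ws, and 330, 681 and 1420 CPM in fus3-3 against 2851, 4262 and 4948 CPM in Col-0. AT2G31985, annotated with the same domain, had a difference of -3.99 ± 0.60, near the -4.25 ± 0.71 of AT5G45690 (SE, edgeR adjusted p = 0.00262 and 0.00525).

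Promoter windows were read for letters of the elements that these factor classes bind. The 250 bases before the annotated start were taken from TAIR10.1, the RefSeq release of the genome, for 15931 of the 16085 tested genes. The letters searched on both strands were CATGCA for the RY element and ACGTG for the ABRE core. A CACGTG holds ABRE letters on both strands, and overlapping matches were allowed. Of all tested genes, 7.6% held the RY letters, 24.3% the ABRE letters and 2.27% both. Of the 47 genes of negative difference called lower in abi3-5, 34.0% held RY letters, 72.3% ABRE letters and 27.7% both. Of the 268 genes called lower in all 3 mutants the shares were 23.1, 45.9 and 13.1%, and of the 541 genes lower in lec1-1 and fus3-3 but not called lower in abi3-5, of which 538 had a window, they were 9.11, 30.9 and 2.79%. Of all 603 genes called lower in abi3-5, of which 600 had a window, the shares were 20, 43.2 and 11.3%. Of the 177 called lower in abi3-5 and in neither other mutant, of which 174 had a window, they were 17.8, 44.3 and 10.3%. Of the 13 genes of negative difference not called in abi3-5, of which 12 had a window, they were 25, 8.33 and 0%. Of the 25 genes of positive difference, 16.0% held RY letters, 16.0% ABRE letters and none both. These shares describe letters in a window and are not tests.

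Windows of EM1 and DSI-1VOC are shown as examples of genes called lower in abi3-5 with no other gene in the window. That of TI2 is shown as a gene called lower in lec1-1 and fus3-3 alone. They were chosen with their letters known and do not stand for the group. GASA2 and AT3G56350, whose abi3-5 effects of -8.43 and -8.25 were larger, held 3 and 1 RY matches and 0 and 1 ABRE matches. AT1G27030, with a difference of -6.90, held neither. Each printed window runs 5′ to 3′ on the gene's strand and ends at the base before the annotated start, with matches to RY or ABRE letters in capitals.
EM1, chr3:19214472-19214721, plus strand: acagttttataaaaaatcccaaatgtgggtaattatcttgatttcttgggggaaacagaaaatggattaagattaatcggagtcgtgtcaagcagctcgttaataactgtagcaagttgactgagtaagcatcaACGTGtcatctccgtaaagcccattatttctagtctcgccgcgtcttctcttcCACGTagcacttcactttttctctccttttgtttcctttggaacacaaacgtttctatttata
DSI-1VOC, chr1:2368437-2368686, minus strand: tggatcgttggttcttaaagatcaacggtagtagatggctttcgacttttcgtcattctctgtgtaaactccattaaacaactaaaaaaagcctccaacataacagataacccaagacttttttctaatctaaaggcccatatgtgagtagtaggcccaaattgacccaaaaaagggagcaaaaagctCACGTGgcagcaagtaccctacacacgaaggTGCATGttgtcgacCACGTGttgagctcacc
TI2, chr2:18068175-18068424, plus strand: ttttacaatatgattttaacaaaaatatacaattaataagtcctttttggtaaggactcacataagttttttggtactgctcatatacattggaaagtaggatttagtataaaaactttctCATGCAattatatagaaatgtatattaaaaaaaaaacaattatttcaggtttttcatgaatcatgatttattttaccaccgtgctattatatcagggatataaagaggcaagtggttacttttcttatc
The EM1 window holds ABRE letters and no RY letters, the DSI-1VOC window holds both, and the TI2 window holds RY letters alone.

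A second group of negative differences came from genes that were called higher in lec1-1 and fus3-3 and not called in abi3-5. AT5G45490, annotated as a P-loop nucleoside triphosphate hydrolase, had 1.14, 0.458 and 1.69 CPM in abi3-5 and 2.36, 1.63 and 0.993 CPM in Ler. It had 98.6, 97.3 and 57.7 CPM in lec1-1 against 0, 1.3 and 2.76 CPM in Ws, and 104, 100 and 51.8 CPM in fus3-3 against 0, 0 and 0.92 CPM in Col-0. All 6 libraries of lec1-1 and fus3-3 were above every other library. The difference was -7.30 ± 1.02 (SE, edgeR adjusted p = 0.00122), and since Col-0 held 2 counts the fitted size depends on the prior count. The fus3-3 count was 264-fold higher than in Col-0 (exact 95% interval 73.1 to 2180, counting error only). Its span overlaps AT5G45472 on the same strand and AT5G45480 on the other, with 70 and 178 counts against 3553.

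GDH1, a glutamate dehydrogenase that links carbon and nitrogen metabolism, showed the same pattern at a smaller size. It had 38.6, 29.1 and 24.9 CPM in abi3-5 and 45.6, 35.8 and 17.4 CPM in Ler, 115, 136 and 156 CPM in lec1-1 and 32.2, 36.4 and 22.1 CPM in Ws, and 138, 133 and 120 CPM in fus3-3 and 36.0, 24.1 and 24.9 CPM in Col-0. The difference was -2.28 ± 0.40 (SE, edgeR adjusted p = 0.0081). PYL4, a receptor of abscisic acid, had 3.12, 2.29 and 3.79 CPM in abi3-5 and 6.69, 8.96 and 2.48 CPM in Ler, 49.8, 107 and 24.3 CPM in lec1-1 and 4.95, 1.95 and 2.21 CPM in Ws, and 85.8, 117 and 15.4 CPM in fus3-3 and 10.0, 10.5 and 10.6 CPM in Col-0. Its difference of -4.03 ± 0.88 (SE, edgeR adjusted p = 0.041) was not called without any 1 of 14 libraries (-3.58 to -4.22, adjusted p up to 0.205). PYL4 was the called gene among 30 tested of abscisic acid synthesis and signalling, against 0.535% of all tested genes called either way. The median difference of that list was 0.47. NSP1, which directs glucosinolate breakdown to nitriles, was higher in all 3 mutants. It had 38.0, 33.7 and 47.2 CPM in abi3-5 and 2.36, 6.52 and 21.3 CPM in Ler, 167, 207 and 114 CPM in lec1-1 and 4.95, 3.25 and 3.59 CPM in Ws, and 302, 337 and 166 CPM in fus3-3 and 4.5, 3.09 and 9.20 CPM in Col-0. GDH1 and NSP1 were chosen after their values were seen.

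CYP96A3 and SULTR2;1, also called higher in lec1-1 and fus3-3 than in their own wild types, and AT1G27030 rested on few counts. CYP96A3, a cytochrome P450, had 0 counts in abi3-5 and 2 in Ler, which gives no fold, 127 in lec1-1 and 0 in Ws, at least 18.2-fold higher with Ws set to a floor of 3 counts in all, and 273 in fus3-3 and 1 in Col-0, 66.8-fold higher (exact 95% interval 11.9 to 2650). Its difference of -9.91 ± 2 (SE, edgeR adjusted p = 0.0454) was called without Col-0 at 17 DAF, and not without any 1 of the other 17 libraries (-6.99 to -11.08). SULTR2;1, a sulphate transporter, had 0.852, 2.06 and 0.421 CPM in abi3-5 and 7.08, 9.77 and 0 CPM in Ler, 15.9, 11.3 and 14.4 CPM in lec1-1 against 2 counts in all of Ws, and 7.16, 9.03 and 2.02 CPM in fus3-3 and 1.00, 0 and 0.92 CPM in Col-0. The SULTR2;1 levels in fus3-3 overlapped with those in Ler. Its level in abi3-5 minus the mean of lec1-1 and fus3-3 was -3.1, and that in Ler minus the mean of Ws and Col-0 was 3.17. The SULTR2;1 difference of -6.27 ± 1.17 (SE, edgeR adjusted p = 0.0135) was not called once either of the first 2 Ler libraries or the first abi3-5 library was left out (-5.59 to -6.22, adjusted p = 0.0526 to 0.0676). AT1G27030, an uncharacterized protein called lower in abi3-5 alone, had 3 counts in abi3-5 and 168 in Ler, of which 76.9 CPM was at 21 DAF and 0.787 CPM at 15 DAF. That is 123-fold lower (exact 95% interval 41.2 to 600). The AT1G27030 difference of -6.90 ± 1.53 (SE, edgeR adjusted p = 0.0448) was not called without any 1 of 13 libraries (-4.64 to -7.53).

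AT1G67855, AT1G67856 and AT1G52100 were called lower in abi3-5 and higher in both lec1-1 and fus3-3. AT1G67856, a RING/U-box protein, had 0.284, 0.229 and 0.211 CPM in abi3-5 against 2.75, 9.77 and 27.8 CPM in Ler. It had 10.2, 4.88 and 30.4 CPM in lec1-1 against 0, 0 and 1.1 CPM in Ws, and 1.41, 7.86 and 70.8 CPM in fus3-3 against 0.5, 0.618 and 0.92 CPM in Col-0. The levels of Ler lay above those of Ws and Col-0 in every library, so the wild types differed from each other as well as the mutants. Its difference was -10.57 ± 1.21 (SE, edgeR adjusted p = 0.000141), with 3 counts in abi3-5 against 75 in Ler, 54.7-fold lower (exact 95% interval 18 to 271). AT1G67855 is annotated on the opposite strand and shares 473 bases with AT1G67856, so both may count the same reads. It had 1 count in abi3-5 and 39 in Ler, 160 in lec1-1 and 3 in Ws, and 225 in fus3-3 and 1 in Col-0, with a difference of -11.15 ± 1.53 (SE, edgeR adjusted p = 0.00119). The fitted sizes for AT1G67855 and AT1G67856 depend on the prior count because of such low counts. AT1G52100, a mannose-binding lectin, had no count in abi3-5, and 8 in Ler, all at 15 DAF. It had 74.0, 55.3 and 25.2 CPM in lec1-1 against 1.24, 1.95 and 0.552 CPM in Ws, and 181, 218 and 66.0 CPM in fus3-3 against 3.5, 5.56 and 5.52 CPM in Col-0. Against the floor AT1G52100 was at least 5.83-fold lower in abi3-5, and its difference of -10.18 ± 1.43 (SE, edgeR adjusted p = 0.00303) was -5.28 with an adjusted p of 1 without Ler at 15 DAF.

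Most genes of positive difference were called lower in lec1-1 and fus3-3 and not called in abi3-5. A missing call does not show an unchanged level. Among these genes, the abi3-5 libraries lay below all of Ler for CSD2, and above all of Ler for AT3G14360, AT4G18280 and AT1G61740. TI2, a trypsin inhibitor of seeds, had 424, 448 and 31.0 CPM in abi3-5 and 514, 376 and 124 CPM in Ler. It had 5.49, 3.11 and 1.60 CPM in lec1-1 against 385, 218 and 55.5 CPM in Ws, and 0.325, 0.531 and 0.81 CPM in fus3-3 against 493, 12.4 and 76.4 CPM in Col-0. All 6 libraries of lec1-1 and fus3-3 were below every other library. The difference was 6.52 ± 1.07 (SE, edgeR adjusted p = 0.00493). AT1G47540, a knottin peptide of the class that includes proteinase inhibitors, was lower in all 3 mutants, with 897, 894 and 147 CPM in abi3-5 against 4794, 3901 and 2067 CPM in Ler, 168, 55.3 and 22.4 CPM in lec1-1 against 11982, 9735 and 2539 CPM in Ws, and 15.4, 18.4 and 15.2 CPM in fus3-3 against 7259, 529 and 1280 CPM in Col-0. Its effect was -2.77 in abi3-5, -6.78 in lec1-1 and -6.94 in fus3-3, and its difference of 4.09 ± 0.90 (SE, edgeR adjusted p = 0.041) was not called without any 1 of 14 libraries (3.64 to 4.42, adjusted p up to 0.179).

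AOP3, a dioxygenase of glucosinolate synthesis, had 123, 54.3 and 7.16 CPM in abi3-5 and 85.0, 44.0 and 1.99 CPM in Ler, 4.45, 0.444 and 0.229 CPM in lec1-1 and 68.1, 21.4 and 0.829 CPM in Ws, and 3.79, 1.81 and 0.405 CPM in fus3-3 and 197, 0.618 and 54.3 CPM in Col-0. AT4G19380, of the long-chain fatty alcohol dehydrogenase family, had 15.3, 9.39 and 1.90 CPM in abi3-5 and 28.3, 9.77 and 0.993 CPM in Ler, at most 0.444 CPM in lec1-1 against 42.7, 26.0 and 1.66 CPM in Ws, and at most 0.867 CPM in fus3-3 against 62.0, 2.47 and 88.4 CPM in Col-0. In Ws and Ler both genes fell with age, whereas Col-0 held less at 17 DAF than at 21 DAF. The difference was 5.57 ± 1.25 for AOP3 and 6.99 ± 1.44 for AT4G19380 (SE, edgeR adjusted p = 0.0475 and 0.0277). Without single libraries AOP3 was not called in 16 cases (5.09 to 6.22) and AT4G19380 in 9 (6.49 to 7.44).

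FLC, the repressor of flowering, had 69.8, 55.4 and 5.06 CPM in abi3-5 and 66.9, 6.52 and 33.3 CPM in Ler. In lec1-1 it had 1 count against 155 in Ws, 360-fold lower (exact 95% interval 63.6 to 14300, counting error only), and in fus3-3 3.79, 13.1 and 14 CPM against 79.1, 78.4 and 49.7 CPM in Col-0. The FLC difference of 5.51 ± 1.07 (SE, edgeR adjusted p = 0.0178) was not called when the abi3-5 library of 15 or 17 DAF, the Ler library of 17 or 21 DAF or the lec1-1 library of 15 DAF was left out (4.95 to 5.55, adjusted p = 0.0507 to 0.0829). The remaining genes of this pattern of calls named by the rule were AT3G04000, AT1G60970, AT2G46690 and SCPL7, with differences of 4.73, 4.56, 3.92 and 3.80. For AT1G60970, the abi3-5 libraries overlapped with those of lec1-1 and fus3-3, and Ler lay below every library of Ws and Col-0. AT3G04000, of the Rossmann-fold family, was not called when an abi3-5 or Ler library of 15 or 17 DAF or the fus3-3 library of 17 DAF was left out (3.88 to 4.77), AT1G60970, a SNARE-like gene, when the abi3-5 library of 17 DAF or the Ler library of 15 DAF was left out (4.02 and 4.13), AT2G46690, a SAUR-like gene, without 14 single libraries (3.64 to 4.21), and SCPL7, a carboxypeptidase-like gene, without 8 (3.19 to 3.77). FLC and AT3G04000 overlap other annotated genes on the opposite strand, AT5G01675 and AT3G04010, whose reads cannot be told apart without strand. RD26, a NAC transcription factor of the response to dehydration and abscisic acid, named after its values were seen, had 170, 116 and 77.3 CPM in abi3-5 and 64.9, 114 and 92.3 CPM in Ler, 20.6, 28.6 and 27.0 CPM in lec1-1 and 100, 179 and 76.0 CPM in Ws, and 19.7, 29.5 and 14.6 CPM in fus3-3 and 69.5, 148 and 125 CPM in Col-0. Its difference was 2.79 ± 0.49 (SE, edgeR adjusted p = 0.0081).

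The 3 genes called higher in abi3-5 with a positive difference were 2 glycosyltransferases and a membrane protein. UGT76E2, a UDP-glucosyl transferase, had 28.1, 27.7 and 23.0 CPM in abi3-5 and 11, 10.6 and 0.496 CPM in Ler, 1.33, 2.22 and 0.458 CPM in lec1-1 and 27.2, 3.90 and 8.29 CPM in Ws, and 2.28, 2.23 and 1.42 CPM in fus3-3 and 10.5, 3.09 and 2.76 CPM in Col-0. Its difference was 4.47 ± 0.79 (SE, edgeR adjusted p = 0.0081). AT5G62720, an integral membrane protein of the HPP family, had 40.6, 44.2 and 21.7 CPM in abi3-5 against 3.54, 7.33 and 4.96 CPM in Ler. It had 7.56, 9.33 and 6.41 CPM in lec1-1 against 14.2, 9.10 and 22.1 CPM in Ws, and 1.19, 4.14 and 7.29 CPM in fus3-3 against 4, 11.1 and 12.0 CPM in Col-0. The AT5G62720 difference was 3.92 ± 0.65 (SE, edgeR adjusted p = 0.00548). AT2G36770, of the UDP-glycosyltransferase superfamily, had 60.5, 46.5 and 19.0 CPM in abi3-5 and 3.93, 7.33 and 20.4 CPM in Ler, so the groups overlapped at 21 DAF. In lec1-1 AT2G36770 had 0.593, 0.888 and 2.98 CPM against 8.04, 11 and 19.1 CPM in Ws, and in fus3-3 2.6, 1.59 and 9.92 CPM against 1.5, 40.8 and 26.7 CPM in Col-0. Its difference of 5.27 ± 0.97 (SE, edgeR adjusted p = 0.0119) lost its call when the Ler library of 15 DAF, that of 17 DAF or the abi3-5 library of 15 DAF was left out (4.07 to 5.10, adjusted p = 0.0637 to 0.0694). UDP-glycosyltransferases form large families, and how the counting treated reads shared between members is not given.

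A difference of differences can come from the mutants or from the wild types, so each was split into the level in abi3-5 minus the mean of lec1-1 and fus3-3, and the level in Ler minus the mean of Ws and Col-0. For the 61 negative differences the median was -3.80 on the mutant side and 0.20 on the wild type side. For the 25 positive ones it was 3.13 and -0.75. The mutant side was the larger in 56 of 61 and 22 of 25. The 3 abi3-5 libraries lay below all 6 of lec1-1 and fus3-3 for 54 of the 61 genes, against 6.59% of all tested genes, and above all 6 for 22 of the 25, against 4.38%. The Ler libraries lay above all 6 of Ws and Col-0 for 4 of the 61 (1.19% of all genes) and below all 6 for 4 of the 25 (1.27%). The members were called from these same levels, so the counts describe them and test nothing. FAS2, a subunit of a chromatin assembly factor, was the exception in direction, and is named after its values were seen. It had 13.1, 11 and 7.16 CPM in abi3-5, above 6.67, 3.33 and 1.60 CPM in lec1-1 and 3.04, 2.97 and 1.21 CPM in fus3-3. It also had 29.9, 5.70 and 17.9 CPM in Ler, where Ws held 1 count in all. The FAS2 difference of -3.80 ± 0.83 (SE, edgeR adjusted p = 0.0405) thus lay on the wild type side (5.62) and not on the mutant side (1.82). AT1G60970 was likewise mostly on the wild type side, with 2.36, 2.44 and 3.97 CPM in Ler and at least 18.5 CPM in every library of Ws and Col-0.

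**Figure D4:**
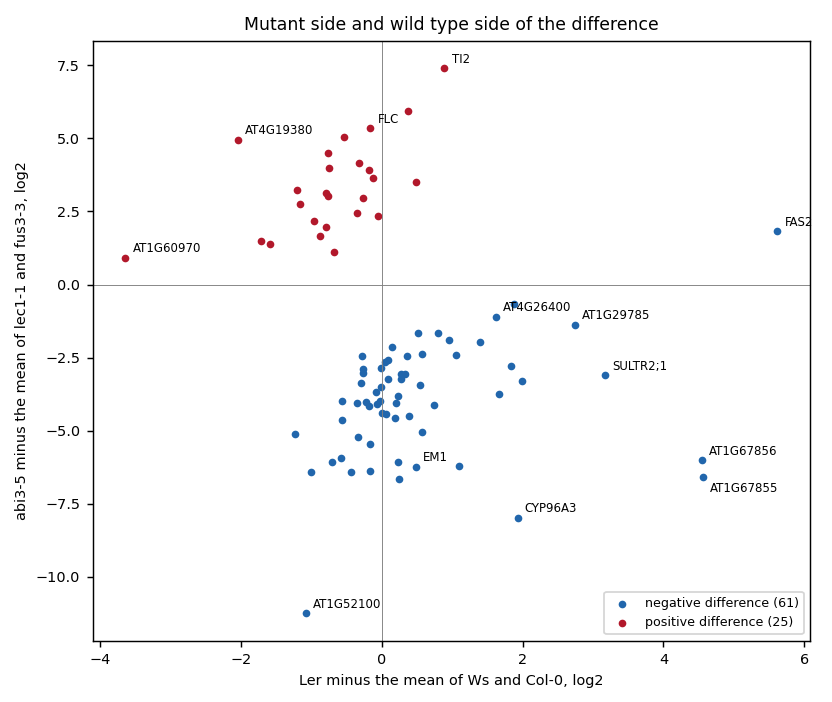
For each of the 86 called genes, the log2 level in abi3-5 minus the mean of lec1-1 and fus3-3 (vertical) is plotted against the log2 level in Ler minus the mean of Ws and Col-0 (horizontal), and the difference is the vertical minus the horizontal value. Most points spread vertically near 0 on the horizontal axis, while FAS2, AT1G67855, AT1G67856, SULTR2;1 and AT1G60970 lie far from it.

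Most other gene lists held no called difference. The 13 storage protein genes had a median effect of -3.33 in abi3-5 (8 called lower), -2.94 in lec1-1 (8) and -3.05 in fus3-3 (9), where 3.75, 9.15 and 8.67% of all tested genes were called lower in these mutants. Their median difference was -0.10, with none called by edgeR (3 at an unadjusted p under 0.05, and 2 called with DESeq2). Within that list the 2S albumins SESA1 and SESA3 had the smallest p, with differences of -3.71 ± 1.13 and -3.06 ± 1.25 (SE, edgeR adjusted p = 0.182 and 0.365). The 51 nuclear photosynthesis genes had a median effect of 2.24 in abi3-5 (8 called higher), 4.5 in lec1-1 (43) and 1.65 in fus3-3 (9), where 4.24, 14.5 and 10.3% of all tested genes were called higher in these mutants. Their median difference was -0.62, and none was called by edgeR, reached an unadjusted p under 0.05 or was called with DESeq2. Leaving out all libraries of 17 DAF turned this median to 0.18. The 24 cell cycle genes had a median difference of -1.19 (-0.73 with genes at 0 counts at their bound), with none called (4 at an unadjusted p under 0.05, and 1 with DESeq2). The 10 tested cuticular wax genes all had a negative difference, with a median of -1.37 (-1 with genes at 0 counts at their bound). None of them was called by edgeR or DESeq2, and 4 had an unadjusted p under 0.05 (edgeR).

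Heat shock proteins, chaperones of which small members build up in drying seeds, had the highest median of any list of 5 or more tested genes. Their median difference was 2.68 over 20 genes, from a median effect of 1.52 in abi3-5 (5 called higher), -1.18 in lec1-1 (none called) and -0.91 in fus3-3 (1 higher and 2 lower). Of all tested genes 4.24% were called higher in abi3-5, and 10.3% higher and 8.67% lower in fus3-3, so the fus3-3 counts were near those shares. None was called by edgeR, with 7 positive at an unadjusted p under 0.05 and 4 called with DESeq2. The median was 1.88 without the Col-0 libraries of 17 and 21 DAF and 0.10 without all libraries of 15 DAF, so it rested on the earliest day. HSP18.2 had 24.1, 9.39 and 0.632 CPM in abi3-5 and no count in Ler, at least 19.7-fold higher against the floor, and its difference had an adjusted p of 0.0902. It had 2 counts each in lec1-1 and Ws, and 5.75, 0.956 and 0.405 CPM in fus3-3 against 2, 0 and 0 CPM in Col-0. EXPA2, an expansin of seed germination, had 23.3, 60.0 and 64.3 CPM in abi3-5 against 1 count in Ler, and 8.24, 20.5 and 23.5 CPM in fus3-3 against 0.5, 5.56 and 0.92 CPM in Col-0. In lec1-1 EXPA2 had 1.33, 1.33 and 0.916 CPM against 3 counts in Ws. Its difference of 5.37 missed the threshold (edgeR adjusted p = 0.0778), as did that of -3.25 for the seed tonoplast aquaporin TIP3;1 (adjusted p = 0.0716).

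Lists of other tissues of the seed and silique were measured beside these. The 11 tested seed coat flavonoid genes had a median difference of -3.06, with none called by edgeR (5 negative at an unadjusted p under 0.05, and 2 with DESeq2). It was -1.36 without all libraries of 17 DAF. The summed level of all 17 listed was 120 to 363 CPM in abi3-5 and 102 to 597 CPM in Ler, 231 to 461 CPM in lec1-1 and 79.3 to 273 CPM in Ws, and 369 to 664 CPM in fus3-3 and 91.4 to 831 CPM in Col-0. DFR, an enzyme late in that pathway, had 0, 0.458 and 1.69 CPM in abi3-5 and 5.90, 2.44 and 0.993 CPM in Ler, 6.53, 12.7 and 3.89 CPM in lec1-1 and 4.33, 2.6 and 0 CPM in Ws, and 31.8, 30.2 and 2.02 CPM in fus3-3 and 0.5, 0.618 and 1.38 CPM in Col-0. Mucilage genes summed to 158 to 452 CPM in abi3-5 and 155 to 189 CPM in Ler, 283 to 437 CPM in lec1-1 and 127 to 207 CPM in Ws, and 322 to 381 CPM in fus3-3 and 222 to 338 CPM in Col-0. Of 10 listed endosperm genes, 7 were at 0 in abi3-5 and 6 in Ler, 4 in lec1-1 and 6 in Ws, and 2 in fus3-3 and 8 in Col-0. They summed to 79.6 to 345 CPM in abi3-5 and 738 to 960 CPM in Ler, 163 to 222 CPM in lec1-1 and 555 to 1440 CPM in Ws, and 72.0 to 237 CPM in fus3-3 and 773 to 1070 CPM in Col-0. Silique wall genes stayed between 0.276 and 13.4 CPM in sum in these 18 libraries. Whether tissue proportions had a part in any difference was not tested, and fewer cells of a type and less RNA per cell cannot be told apart in whole seeds.

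**Figure D5:**
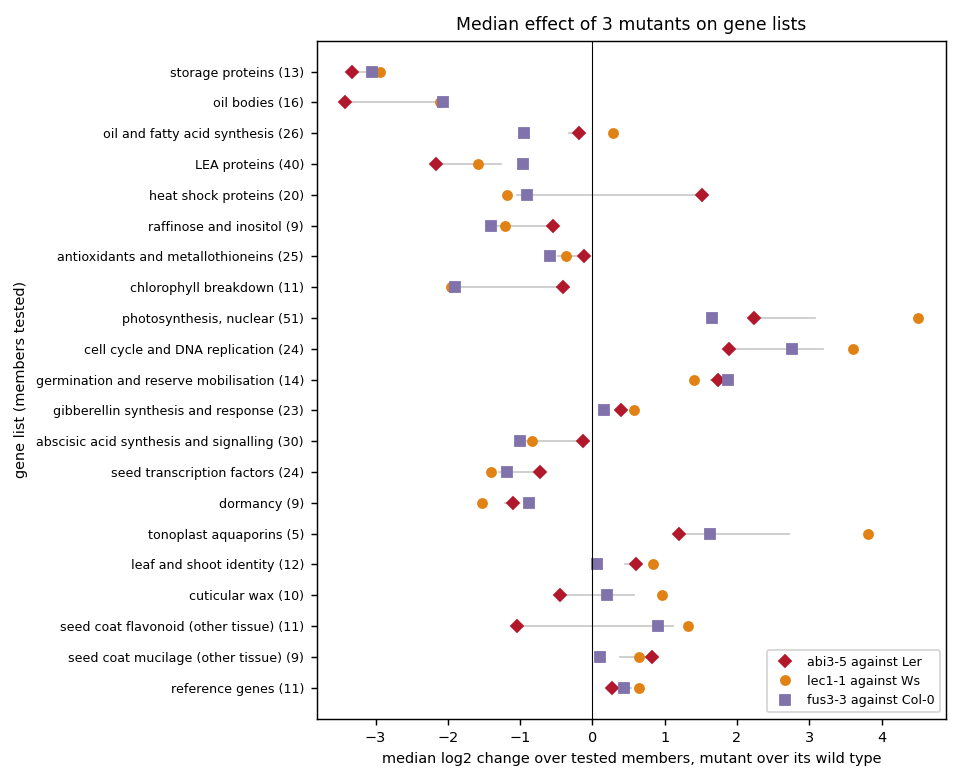
Median log2 effect over the tested members of each gene list of at least 5 tested genes, for abi3-5 against Ler (diamonds), lec1-1 against Ws (circles) and fus3-3 against Col-0 (squares); a line joins the abi3-5 median to the mean of the other 2. The storage protein medians lie close together, and the oil body and LEA medians are lower in abi3-5. Heat shock proteins, cuticular wax genes and seed coat flavonoid genes have abi3-5 on the other side of 0 from lec1-1 and fus3-3.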

How the data were processed

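Per the labels' protocols, pooled seed RNA was amplified (in vitro transcription), and barcoded libraries were run on a SOLiD sequencer. The authors deposited raw counts per locus for 24 samples. They also deposited normalized values, a signal made with edgeR per the submitters' processing notes, proportional to the counts within each sample. The build is TAIR10 per those notes, and the aligner, counter and strand setting are not given in the sources used here. For lec2-1 the same values stand under 15 and 17 DAF, taken here as 1 library, which leaves 23.

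Counts were fitted with edgeR 4.0.16 in R 4.3.3 (quasi-likelihood test, TMM scaling, filterByExpr with a minimum count of 10), with a term for each genotype and a day term, over all 23 libraries. This kept 16085 of 33597 loci. The difference and each effect are contrasts of that fit, with Benjamini-Hochberg adjustment over all tested genes and a threshold of 0.05. Standard errors were derived from the log2 change and its F statistic. Values per day and in the plots are log2(CPM + 2). The fit was tested on simulated data. The sample titles give a day and no replicate number, so the 3 days served as repeats and the day term was kept as a block. Alternatives used DESeq2 1.42.0, limma 3.58.1, other scalings, filters and models, and fewer libraries.

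Genes were named by rule. The rule took the regulators, and the 12 largest called differences in each direction with a mean of at least 20 counts and 1 sign at all days and against each mutant. From each list it took up to 4 called members, or up to 2 of smallest p where none was called, and it took genes called in opposite directions. Others are said to be chosen after their values were seen. The genes, lists and tests were chosen with earlier results of these data known. Gene names, products and promoter windows come from RefSeq (TAIR10.1), and the files hold no coordinates. Ratios of counts carry exact 95% intervals. Totals of 1670355 to 6531673 counts per library limit the precision for weak transcripts. The abi3-1 and lec2-1 libraries entered the fit only for its spread and day term.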

Additional observations from a re-analysis of the deposited data

Results flagged for a closer look

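The abi3-5 effect differed from the mean of the lec1-1 and fus3-3 effects at 86 genes, from the lec1-1 effect alone at 54 and from the fus3-3 effect alone at 45, and the lec1-1 effect differed from the fus3-3 effect at 1, each by a test of the difference itself (edgeR quasi-likelihood test, adjusted p under 0.05). Genes called in abi3-5 and called in the opposite direction in both lec1-1 and fus3-3 were AT1G67855, with a log2 difference of -11.15, AT1G67856 with -10.57, AT1G52100 with -10.18 and AT2G36770 with 5.27. The overlap of AT1G67855 and AT1G67856 means that they may share reads, and the AT1G52100 call rested on the Ler library of 15 DAF. The fitted sizes of these 3 genes depend on the prior count. In abi3-5, Ws and Col-0, AT1G67855 had 1, 3 and 1 counts in all, and AT1G67856 had 3, 4 and 4. AT1G52100 had 0 counts in abi3-5, 8 in Ler and 7 in Ws.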

How the results depend on the processing

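Called genes were counted for the abi3-5 effect minus mean of lec1-1 and fus3-3 effects, for the abi3-5 effect minus lec1-1 effect and for the abi3-5 effect minus fus3-3 effect. These counts, 86, 54 and 45 as reported, were 323, 236 and 182 with DESeq2, 213, 162 and 106 with limma on the deposited signal, 54, 23 and 25 with only the 18 libraries, and 38, 20 and 24 against a 2-fold minimum change. Without the day term, which is the block of the model, they were 31, 15 and 20. With the Col-0 libraries of 17 and 21 DAF exchanged they were 174, 126 and 96, and with both left out the count against lec1-1 was 111. They were 6, 3 and 3 without all libraries of 15 DAF, and 6, 0 and 0 without those of 17 DAF (707 and 1120 genes at an unadjusted p under 0.05 for both edgeR counts of 0). Without 21 DAF the counts against lec1-1 and fus3-3 were 19 and 24. The lec1-1 effect minus the fus3-3 effect, with 1 call, had 12 with DESeq2, 7 with limma, 2 with library totals, with a day effect per ecotype or with Col-0 exchanged, and 0 without 15 or 17 DAF (321 and 909 unadjusted, edgeR).

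The abi3-5 effect had 8029 calls with library totals, 1952 with DESeq2, 716 without the block, 413 at 2-fold, 1939 with Col-0 exchanged, and 445, 194 and 425 without 15, 17 and 21 DAF. For the lec1-1 effect they were 6561 with library totals, 1515 at 2-fold, and 1032, 489 and 2399 without those days. For the fus3-3 effect they were 5903 with library totals, 1863 without the block, 1963 with a day effect per ecotype, 1040 at 2-fold, 460 without the Col-0 libraries of 17 and 21 DAF, and 752, 710 and 1678 without those days. Leaving out single libraries gave 30 to 191 calls for the difference, 14 to 108 against lec1-1, 25 to 154 against fus3-3, 1 to 3 for lec1-1 minus fus3-3, 451 to 1752 for abi3-5, 1889 to 4325 for lec1-1 and 1159 to 3300 for fus3-3. The cause was not tested. Of 34 called genes named by rule, 15 stayed called without each of the 18 libraries, and AT1G67856 and AT2G25890 stayed called in all 16 other alternatives. None changed direction in any alternative run. With 1 pooled library per genotype and day, small differences in weak transcripts were not detectable at this depth.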

Other observations

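The abi3-1 and lec2-1 libraries belong to no comparison above. The labels give abi3-1 as desiccation intolerant, while the design text of the series lists it among the tolerant seeds. In abi3-1 at 15, 17 and 21 DAF, EM1 had 245, 7267 and 5040 CPM, AT2G25890 had 135, 466 and 512 CPM, and DSI-1VOC had 81.1, 556 and 497 CPM. In lec2-1, the library deposited for both 15 and 17 DAF and that of 21 DAF had 1740 and 2528 CPM of EM1, 162 and 228 CPM of AT2G25890, and 275 and 356 CPM of DSI-1VOC. TI2 had 340, 210 and 38.5 CPM in abi3-1 and 164 and 13.9 CPM in lec2-1. AT5G45490 had 2.63, 2.17 and 2.41 CPM in abi3-1 and 21.4 and 13.4 CPM in lec2-1.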
